A study of Mus musculus with 29 samples.

Results

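Binding sites of the glucocorticoid receptor (GR) and of C/EBPβ were compared in livers of wild-type (WT) mice collected at 6pm. The comparison rests on 3 of the 29 samples of the series: a ChIP-seq list of GR peaks, a ChIP-seq list of C/EBPβ peaks, and a ChIP-exo list of GR borders from the same condition. All 3 were chosen by their labels, not by measured values. The mice were untreated GR+/+ males aged 12 weeks, litter-mates of animals with the dimerization-impaired GRdim receptor, back-crossed to BALB/c and kept on a 12 h light cycle, so that 6pm is the start of the dark phase. Other lists of the series served for comparison. They were of WT at 6am, of WT at 6am after 24 h of prednisolone pellets at 12 mg/kg, and, for GR, of GRdim mice at 6am, at 6pm and after prednisolone. Whole liver was used, so signal from its different cell types cannot be separated. Antibodies PA1-511A and sc-1004 were given for GR, and sc-150 for C/EBPβ.

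GR is a nuclear receptor that enters the nucleus when it binds corticosterone, whose level in nocturnal mice rises towards the dark phase. On DNA it is best known as a dimer on an inverted repeat of hexamers, and it is also known to sit at single hexamers and beside other factors. C/EBPβ is a basic leucine zipper protein that binds DNA as a dimer and is abundant in hepatocytes, where it takes part in gluconeogenesis and the acute-phase response. In ChIP-exo an exonuclease trims precipitated DNA up to the crosslinked protein, so that a protein on DNA leaves a border on each strand.

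The GR list held 14270 peaks and the C/EBPβ list 26226, all 200 bp wide. Scores assigned by the authors, whose unit is not known here, ran from 2.01 to 26.35 with a median of 3.36 for GR. They ran from 2.01 to 22.06 with a median of 3.71 for C/EBPβ. The ChIP-exo list held 54636 borders of 10 bp, from a library of 43.1 M tags. Each list was made from 2 pooled replicates, so replicates cannot be compared and there is no p-value. Intervals are at the 95% level and cover the counting of peaks only. ChIP-seq depth is unknown. Coordinates refer to mm9 with a first base of 1, and no annotation of that build was used, so regions carry no gene names.

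GR and C/EBPβ peaks lay at the same places and nearly on top of each other. Of the GR peaks, 11873 (83.2%, Wilson interval 82.6 to 83.8) overlapped a C/EBPβ peak by at least 1 bp, and 2397 did not. In the other direction 45.3% (44.7 to 45.9) of the C/EBPβ peaks overlapped a GR peak, which left 14353 C/EBPβ peaks without GR. The pairing was one to one apart from 1 GR peak that overlapped 2 C/EBPβ peaks and 1 C/EBPβ peak that overlapped 2 GR peaks. Since the C/EBPβ list was the longer one, the share also depended on its length: with the C/EBPβ list cut by score to the length of the GR list, 60.4% of the peaks of either list overlapped one of the other.

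Among overlapping pairs the median distance between centres was 24 bp, with quartiles of 11 and 44 bp, and 90% of pairs lay within 71 bp. Overlap was possible up to 199 bp, so most pairs used only a small part of the range allowed. Of all GR peaks, 20.4% had a C/EBPβ centre within 10 bp, 66.4% within 50 bp and 79.6% within 100 bp. Neither side was preferred: the C/EBPβ centre lay at the higher coordinate in 5863 pairs, at the lower in 5879 and at the same base in 131. The median distance was 23 to 25 bp in each of 5 equal classes of the GR score. Among overlapping pairs, centres within 50 bp were 80.2% to 81.6% of the pairs in classes 1 to 4 and 75.9% in the highest class.

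**Figure D1:**
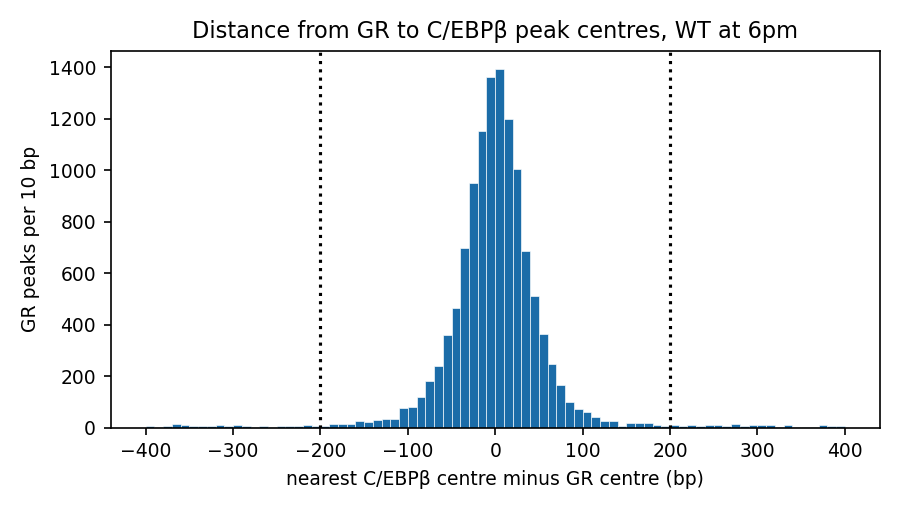
Distance from each GR centre to the nearest C/EBPβ centre in WT at 6pm (horizontal axis, bp) against the number of GR peaks per 10 bp (vertical axis). Dotted lines mark 200 bp, beyond which peaks no longer overlapped. The distribution has a single symmetric mode around 0, and its median absolute distance among overlapping pairs is 24 bp.

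The number of GR peaks fell steeply with distance within the range of overlap and slowly beyond it. Per 10 bp of distance there were 392.8 GR peaks with a C/EBPβ centre from 50 to under 100 bp away, 30.8 from 150 to under 200 bp, 17.4 from 200 to under 300 bp and 12.3 from 300 to under 500 bp. The limit of overlap thus cut through a thin part of the distribution, with 1 GR peak just inside it at 199 bp (score 2.70) and 1 just outside it at 200 bp (score 4.90). GR peaks without an overlap had their nearest C/EBPβ centre at a median of 2857 bp. C/EBPβ peaks without a GR peak were farther from the other factor, at a median of 20209 bp. Most of the unpaired C/EBPβ sites therefore lay well away from any listed GR peak.

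Peaks shared with the other factor had higher scores in both lists. The median GR score was 3.54 at GR peaks with C/EBPβ and 2.67 at those without. The median C/EBPβ score was 4.98 with GR and 3.08 without. When each list was cut by score into 5 classes of equal size, numbered 1 for the lowest scores to 5 for the highest, the share of GR peaks with a C/EBPβ peak was 70.3%, 77.9%, 84.2%, 89.3% and 94.3%. It rose at every step, and the highest class exceeded the lowest by 23.9 percentage points (Newcombe interval 22.0 to 25.8). Against the shortened C/EBPβ list of equal length the difference was 44.6 points.

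The C/EBPβ list showed a steeper rise. Its shares with a GR peak were 20.2%, 31.2%, 41.8%, 54.9% and 78.2% from the lowest to the highest class, a difference of 58.0 points (56.4 to 59.5). At the very top both lists were nearly complete. Of the 100 highest-scoring GR peaks, 98 had a C/EBPβ peak (98%, 93.0 to 99.4), and of the 100 highest-scoring C/EBPβ peaks 96 had a GR peak (96.0%, 90.2 to 98.4). Below the top, C/EBPβ sites without GR were common: 1144 of the 5245 peaks of the highest C/EBPβ class had none. Weak C/EBPβ sites were mostly without GR, since 24.1% (23.2 to 25) of those scoring 2 to under 3 had a GR peak.

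**Figure D2:**
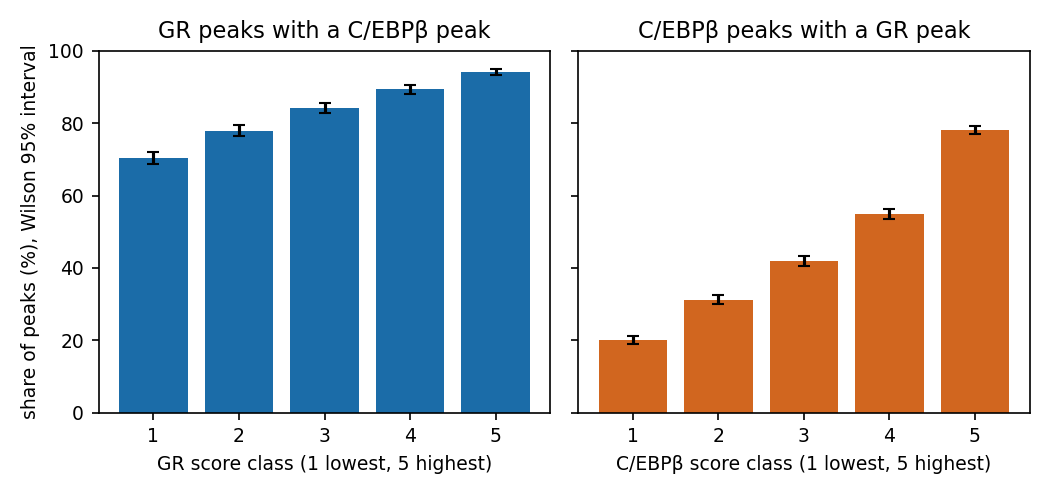
Share of GR peaks with an overlapping C/EBPβ peak (left) and of C/EBPβ peaks with an overlapping GR peak (right), in percent, by class of the peak's own score, from class 1 (lowest) to class 5 (highest). Bars start at 0 and error bars are Wilson 95% intervals. Both shares rise with every class, from 70.3% to 94.3% on the left and from 20.2% to 78.2% on the right.

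The scores of both factors agreed only loosely at the sites they shared. Over the 11873 overlapping pairs the Spearman coefficient was 0.37 and Kendall's tau 0.25. These describe the ranks of peaks in 2 lists from the same tissue and time, and peaks are not independent, so no p is given. Of the pairs whose GR score was in the highest class, 55.9% also had a C/EBPβ score in the highest class, against 18.4% of the pairs in the lowest GR class. Pairs of the lowest GR class nevertheless occurred in every C/EBPβ class, at 16.3%, 20.3%, 23.0%, 22.0% and 18.4% from the lowest to the highest. Over all pairs these classes held 8.93%, 13.8%, 18.5%, 24.3% and 34.5%. Weak GR peaks were thus found more often on the lower C/EBPβ classes, and less often on the highest, than all pairs.

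**Figure D3:**
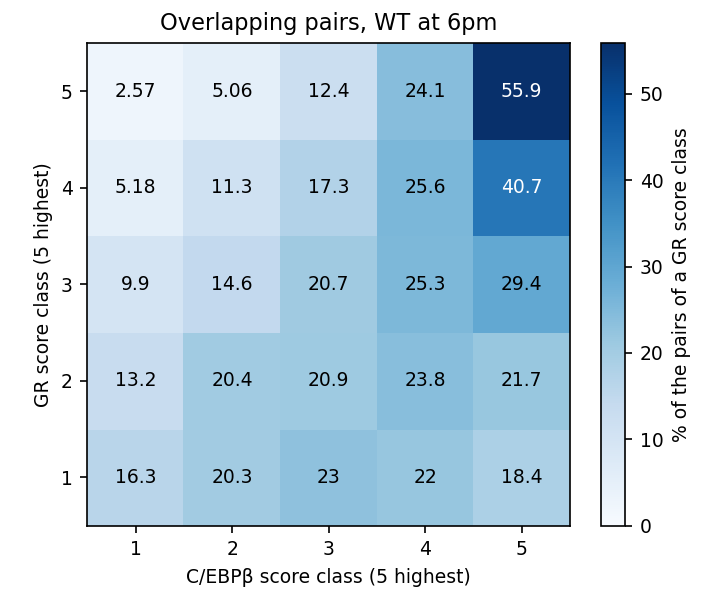
Overlapping pairs of WT at 6pm by class of the GR score (vertical axis) and of the C/EBPβ score (horizontal axis). Numbers and shading give the percentage of the pairs of each GR class, so each row adds to 100. The highest GR class is concentrated at the right, with 55.9% in the highest C/EBPβ class, while the lowest class is spread over all 5.

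The Spearman coefficient was lower in parts of the GR list. Within the GR classes it was between 0.03 (class 1) and 0.13 (class 5), and in the higher-scoring 50% of both lists it was 0.21. These parts were cut by score and span a narrower range, which lowers a coefficient by itself, so no conclusion is drawn from the drop. The extremes of the lists were only partly the same sites. Of the 100 highest-scoring GR peaks, 6 lay on 1 of the 100 highest-scoring C/EBPβ peaks. The counts were 71 for the top 500 and 238 for the top 1000 of both lists. Of the 100, 500 and 1000 highest-scoring C/EBPβ peaks, 96, 478 and 933 overlapped one of all 14270 GR peaks. High-scoring GR peaks thus lay on them more often than GR peaks at large. The agreement was not stronger where centres were closest. The Spearman coefficient was 0.33 for centres 0 to 10 bp apart, 0.32 for 11 to 25 bp and 0.38 for 26 to 50 bp, and then 0.46 for 51 to 100 bp and 0.49 for the 509 pairs 101 to 199 bp apart.

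Single regions showed each of these patterns. The highest-scoring GR peak, on chromosome 4 at 150059310 to 150059509, had a GR score of 26.35, and the C/EBPβ peak centred 5 bp away scored 18.31 and ranked 5 in its list. The second, on chromosome 7 at 71041830 to 71042029, had a GR score of 26.16 and lay 8 bp from the C/EBPβ peak of rank 4, which scored 19.05. These were also the pairs with the best summed rank. On chromosome 8 at 129331483 to 129331682, the next pair by summed rank, the GR score was 20.28 (rank 24), the C/EBPβ score 19.13 (rank 3) and the centres were 110 bp apart. The GR peak of rank 3, on chromosome 2 at 167670163 to 167670362, was different: it scored 25.47 but lay 35 bp from a C/EBPβ peak with a score of 4.12 and rank 11412.

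The widest gaps in rank ran in both directions. The GR peak on chromosome 9 at 119920211 to 119920410 scored 12.90 (rank 230), while the C/EBPβ peak 2 bp away scored 2.08, near the bottom of its list at rank 25368. That C/EBPβ peak was in neither of the other C/EBPβ lists. A like pair on chromosome 15 at 88661970 to 88662169 had a GR score of 13.26 (rank 211) and a C/EBPβ score of 2.12 (rank 24751). In the opposite direction, a C/EBPβ peak on chromosome 7 with a score of 11.25 (rank 804) was centred 1 bp from a GR peak at 47233602 to 47233801 that had the lowest GR score, 2.01, and no ChIP-exo border. Coinciding centres therefore occurred at pairs of very unequal rank.

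Few of the strongest GR peaks lacked C/EBPβ. The highest-scoring one, on chromosome 11 at 68910483 to 68910682, had a GR score of 18.82 (rank 33), and its nearest C/EBPβ centre was 1817 bp away. No C/EBPβ list of the series held a peak there, while all 5 other GR lists did, with scores of 16.48 in WT at 6am, 16.14 in WT after prednisolone, and 9.80, 12.05 and 5.06 in the GRdim lists of 6am, 6pm and prednisolone. The next, on chromosome 3 at 62153266 to 62153465 with a GR score of 16.11, was a near miss, with a C/EBPβ centre 205 bp away and overlapping C/EBPβ peaks at 6am (score 4.50) and after prednisolone (score 4.27). On chromosome 15 at 58831277 to 58831476 (GR score 14.03) the nearest C/EBPβ centre of 6pm was at 368 bp, and the C/EBPβ list of 6am held an overlapping peak (score 5.26). Among C/EBPβ peaks without GR, the highest scores were 16.34 (chromosome 1, 121563601 to 121563800), 16.16 (chromosome 6, 70742129 to 70742328) and 15.82 (chromosome 2, 156005958 to 156006157). Those 3 were far from GR, with the nearest GR centre 101388, 342991 and 14382 bp away, and no GR list of either genotype held them.

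The C/EBPβ side of the pairing was largely present at other times too. Of the GR peaks of 6pm, 56.2% (55.4 to 57.1) overlapped a C/EBPβ peak in all 3 WT C/EBPβ lists, those of 6am, of 6pm and of 6am after 24 h of prednisolone pellets at 12 mg/kg. Of the same GR peaks, 70.2% overlapped a C/EBPβ peak of the 6am list and 59.7% one of the prednisolone list. Only the 6pm C/EBPβ list held one at 11.4% (10.9 to 12.0) of the GR peaks, and no C/EBPβ list did at 15.1% (14.5 to 15.7), or 2153 peaks. Conversely, 244 GR peaks without C/EBPβ at 6pm had a C/EBPβ peak in another list. The 2397 unpaired GR peaks were thus mostly unpaired in every C/EBPβ list.

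ChIP-exo borders of GR were found at 76.8% of all GR peaks, within 100 bp of the centre. GR peaks with C/EBPβ held a border in 78.0% of cases and those without in 70.6%, a difference of 7.40 points (5.46 to 9.40). This direction came with the difference in score between the groups. Within each class of the GR score the peaks without C/EBPβ held a border at least as often, in 48.5% against 44.0% in the lowest class, 70.0% against 60.1% in class 2 and 84.7% against 80.4% in class 3. In the highest class all 164 peaks without C/EBPβ and 99.8% of those with it held one. Averaged over the classes with equal weight, the difference was -4.08 points (-5.51 to -2.65), the reverse of the pooled value.

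The same held for borders of both strands, counted whatever their order and spacing. Pooled, 47.7% of GR peaks with C/EBPβ and 34.6% of those without had them, a difference of 13.1 points (10.9 to 15.2). Averaged over the score classes it was -5.70 points (-7.45 to -3.94). The gap was widest in class 4, with 66.0% against 78.6%. Tag counts ran the same way: at GR peaks of class 4 the borders held a median of 52 tags with C/EBPβ and 73 without, and in the highest class 188 and 230.5. In score classes 2 to 5, GR peaks without C/EBPβ thus had the higher median of ChIP-exo tags.

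The spacing of the borders differed between the groups too. The strongest border of each strand was taken at a peak, and the distance was counted from the plus to the minus strand. Strongest borders 29 to 31 bp apart were found at 6.18% of the 6487 GR peaks with both. They were found at 97 of 829 GR peaks without C/EBPβ (11.7%) and at 304 of 5658 with C/EBPβ (5.37%), a difference of -6.33 points (-8.76 to -4.22). In each class of the GR score the share was higher without C/EBPβ, from 7.77% against 1.82% in the lowest class to 19.0% against 7.51% in the highest. The mean over the classes was -7.55 points (-9.86 to -5.24). The difference stayed negative in all 12 alternatives tried, but its size depended on how borders were picked: it was -10.8 points with at least 20 tags on each border and -1.79 points (-3.37 to -0.608) with the closest opposite borders.

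**Figure D4:**
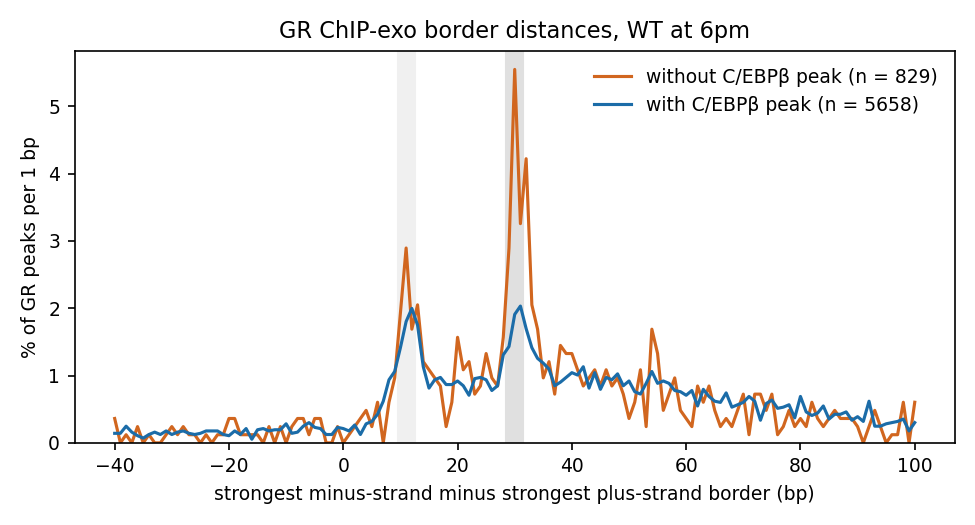
Distance from the strongest plus-strand to the strongest minus-strand GR border (horizontal axis, bp) against the percentage of GR peaks at each 1 bp (vertical axis), for peaks with (n = 5658) and without (n = 829) an overlapping C/EBPβ peak. Shaded bands mark 10 to 12 and 29 to 31 bp. Both lines have modes near 11 and 30 bp, and the second mode reaches 5.55% without C/EBPβ at 30 bp and 2.03% with it at 31 bp.

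The other spacings differed in either direction or not beyond their intervals. Borders 32 to 34 bp apart were found at 7.96% of peaks without and 4.37% with C/EBPβ, a difference of -3.60 points (-5.70 to -1.85). For 10 to 12 bp, found at 5.38% of all such peaks, the shares were 6.51% and 5.21%, and for 24 to 26 bp, found at 2.74%, they were 3.14% and 2.69%. The intervals of both of these differences spanned 0, at -1.30 points (-3.27 to 0.308) and -0.450 points (-1.92 to 0.637). With the closest opposite borders in place of the strongest, however, both spacings were more frequent without C/EBPβ, with differences of -3.58 points (-6.02 to -1.45) and -1.97 points (-3.54 to -0.790), at least as much as the 29 to 31 bp spacing. Which spacing differed therefore depended on how borders were picked. Peaks with C/EBPβ instead had wide spacings more often, with borders 61 to 200 bp apart at 28.2% of them and 20.7% of the others (7.46 points, 4.34 to 10.3). They also had the minus-strand border ahead of the plus-strand border more often, at 12.9% against 8.56% (4.36 points, 2.09 to 6.30). The differences for 32 to 34 bp, for wide spacings and for this order are pooled and were not taken within classes of the GR score. GR scores were higher with C/EBPβ, so the part of the score in these differences was not tested.

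The number of borders per peak was also compared. Peaks with both borders held a median of 5 borders with C/EBPβ and 3 without over all scores, but within score classes the medians were the same (2, 3, 4 and 7 in classes 1, 3, 4 and 5) or lower with C/EBPβ (2 against 3 in class 2). Among peaks with exactly 1 border on each strand the difference in the 29 to 31 bp share was -3.58 points (-7.87 to -0.693), smaller than over all peaks and in the same direction. Averaged over classes of the tag count of the weaker of the strongest borders, it was -6.98 points (-9.26 to -4.69). The part of neighbouring borders in the result beyond this was not tested.

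The share with borders 29 to 31 bp apart was similar at all distances within the overlap and higher beyond it. It was 5.38% where the C/EBPβ centre was 0 to 10 bp away, 5.22% at 11 to 25 bp, 4.85% at 26 to 50 bp, 6.24% at 51 to 100 bp and 6.00% (3.83 to 9.28, 18 of 300) at 101 to 199 bp. At 200 to 1000 bp it was 10.7% (7.71 to 14.6), at 1001 to 5000 bp 11.0% (7.69 to 15.6) and beyond 5000 bp 13.5% (9.92 to 18). The intervals of the neighbouring groups at 101 to 199 and 200 to 1000 bp overlapped, so a step at the limit itself was not resolved. Within the pairs, the score of the C/EBPβ peak made little difference over all GR classes, with 4.59% to 5.88% in the 5 classes of the C/EBPβ score. Among GR peaks of the highest class the share was 13.6% (7.34 to 23.9) on the lowest C/EBPβ class, from 66 peaks, and 6.29% (5.14 to 7.67) on the highest.

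Regions are named for each spacing by the tags on their strongest borders. The GR peak without C/EBPβ on chromosome 11 at 51729604 to 51729803 scored 12.42, with 206 tags on its plus-strand and 104 on its minus-strand border, 31 bp apart. Its nearest C/EBPβ centre of 6pm was 39102 bp away, but the C/EBPβ list after prednisolone held a peak there (score 2.19). The one on chromosome 17 at 29231553 to 29231752 scored 12.39, with borders of 154 and 142 tags 30 bp apart. The third, on chromosome 9 at 43894527 to 43894726 and 545 bp from a C/EBPβ centre, scored 10.09, with borders of 149 and 116 tags 29 bp apart. In the GRdim libraries of 6am, 6pm and prednisolone the first held 0, 8 and 16 tags, the second 18, 0 and 0, and the third 26, 79 and 0. Tags were counted on listed borders only, so 0 means that no border was listed there. The GRdim libraries had 31.6, 43.8 and 45.2 M tags in all, and those of WT at 6am, 6pm and after prednisolone 55.7, 43.1 and 54.7 M. The WT libraries held 508 to 1778 tags at these regions, not corrected for library size. The regions on chromosomes 17 and 9 were nevertheless in the GRdim ChIP-seq lists of 6am (scores 2.64 and 2.03) and 6pm (2.28 and 2.88). Among peaks with C/EBPβ, the one on chromosome 4 at 49572864 to 49573063 (GR score 22.33, rank 9) had borders of 381 and 360 tags 30 bp apart, 8 bp from a C/EBPβ peak scoring 7.61. It held 44, 225 and 116 tags in the GRdim libraries and 1772 to 2508 in those of WT.

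For the 24 to 26 bp spacing with C/EBPβ, the region with the most such tags was on chromosome 7 at 46594835 to 46595034 (GR score 3.51). Its borders of 158 and 43 tags were 25 bp apart, and it lay 2 bp from a C/EBPβ peak scoring 4.05 (rank 11749). The next, on chromosome 14 at 76193043 to 76193242 (GR score 14.76), lay 6 bp from the highest-scoring C/EBPβ peak of the list, at 22.06. Its borders of 86 and 72 tags were 26 bp apart. For the 10 to 12 bp spacing, the GR peak on chromosome 6 at 72112205 to 72112404 (GR score 21.74) had borders of 471 and 209 tags 12 bp apart and lay 48 bp from a C/EBPβ peak scoring 10.14. Without C/EBPβ, the peak on chromosome 7 at 146110943 to 146111142 (GR score 11.29) had borders of 99 and 197 tags 11 bp apart, and its nearest C/EBPβ centre was 393 bp away.

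GR borders at C/EBPβ peaks were mostly those of listed GR peaks. Of all C/EBPβ peaks 40.5% held a GR border within 100 bp of their centre, 76.4% (75.6 to 77.2) of those with a GR peak and 10.8% (10.3 to 11.3) of those without. Without a GR peak the share rose with the C/EBPβ score, at 7.74%, 8.76%, 11.2%, 14.5% and 19.3% from the lowest to the highest class. It was 9.47% (8.98 to 9.99) where the nearest GR centre was over 1000 bp away. These borders were faint, with a median of 11 tags per C/EBPβ peak that held any, against 43 where a GR peak was listed, and with at least 20 tags required on a border the share without GR was 0.676%. Borders on both strands were found at 212 C/EBPβ peaks without GR (1.48%), and those of 5 were 29 to 31 bp apart.

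Seen from the 53788 borders outside the mitochondrial genome, 59.4% (59.0 to 59.8) lay within 100 bp of the centres of a GR and of a C/EBPβ peak. A further 16.8% lay near a GR peak only, 7.57% near a C/EBPβ peak only and 16.3% near neither. Their median tag counts were 20, 19, 13 and 12, so borders outside listed GR peaks were the weaker ones. These groups go by the distance of each border itself to the centres. Borders near a GR peak only therefore include some at GR peaks that overlapped a C/EBPβ peak, and their share is not that of unpaired GR peaks.

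WT 6pm GR peaks with and without C/EBPβ in WT were listed in GRdim to different extents. At 6pm the GRdim list held 49.4% of the WT GR peaks. It held 54.5% of those with C/EBPβ and 23.8% of those without, a pooled difference of 30.7 points (28.7 to 32.6). Averaged over the classes of the GR score, the difference was 20.9 points (18.6 to 23.3). The difference widened with the GR score of WT. In the lowest class the shares were 9.97% and 10.4%, in the middle class 51.3% and 31.9%, and in the highest class 90.4% and 47.6% (42.9 points, 35.2 to 50.5). Of the 164 GR peaks of the highest WT class without C/EBPβ, 78 were listed in GRdim. C/EBPβ lists are of WT, so nothing is known here of C/EBPβ in GRdim.

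The other WT lists did not show such a gap. The WT list of 6am held 39.5% of the 6pm GR peaks, 41.9% of those with C/EBPβ and 27.5% of those without, but within score classes 1 to 4 the peaks without C/EBPβ were listed more often, for example in 71.1% against 62.2% of class 4. In the highest class it was 90.9% without and 95.5% with C/EBPβ. The WT prednisolone list held 26.7% of them, with 38.2% against 31.2% in class 4 and 74.4% against 77.2% in the highest class. The GRdim lists of 6am and of prednisolone held 21.4% and 21.0% of them, and in the highest class each held the peaks without C/EBPβ less often, at 26.8% against 65.2% and at 23.2% against 60.9%.

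**Figure D5:**
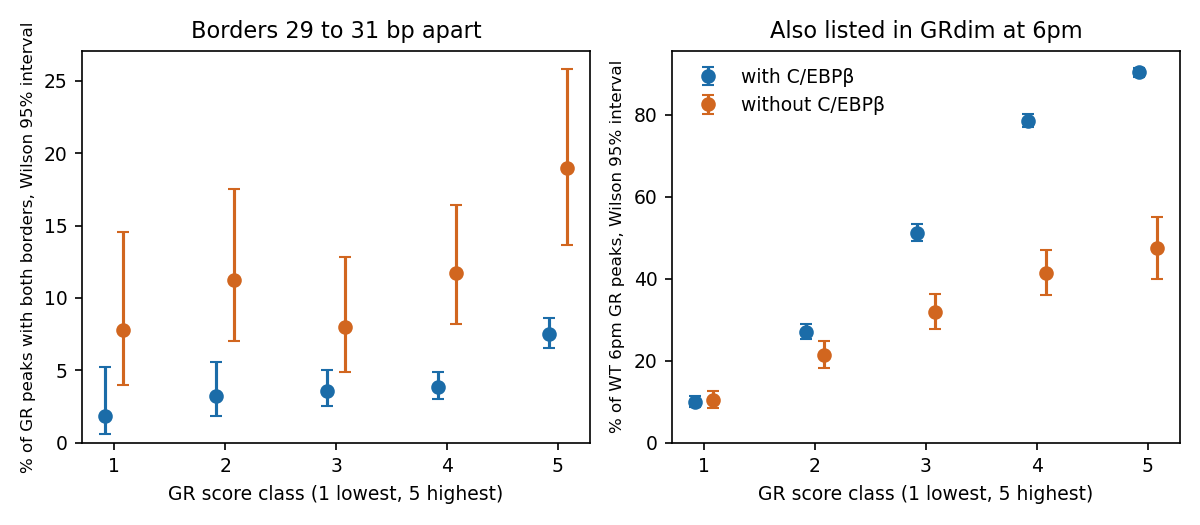
Left, percentage of WT 6pm GR peaks with both borders whose strongest borders were 29 to 31 bp apart. Right, percentage of WT 6pm GR peaks also listed in GRdim at 6pm. Both are shown by class of the GR score, with and without a C/EBPβ peak, with Wilson 95% intervals. On the left, peaks without C/EBPβ are higher in all 5 classes. On the right, peaks with C/EBPβ are higher from class 2 upwards, reaching 90.4% against 47.6%.

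The share listed in GRdim differed little by distance within the overlap and was lower beyond it. It was 55.7%, 54.8%, 53.7%, 54.0% and 53.0% for C/EBPβ centres 0 to 10, 11 to 25, 26 to 50, 51 to 100 and 101 to 199 bp away. Beyond the overlap it was 31.9% (28.6 to 35.4) at 200 to 1000 bp, 23.1% (20.2 to 26.2) at 1001 to 5000 bp and 18.3% (16.0 to 20.9) farther out. The GR score fell along the same distances, with medians of 3.02, 2.63 and 2.52 against 3.51 to 3.91 at overlapping peaks. By border spacing in WT, 67.1% (61.6 to 72.1) of the peaks with C/EBPβ and borders 29 to 31 bp apart were listed in GRdim, below the 75.3% (74.1 to 76.4) of all peaks with C/EBPβ and both borders, although their median GR score was higher (6.69 against 5.12). Without C/EBPβ the shares were 27.8% (19.9 to 37.5) and 32.1% (29 to 35.3). Peaks with C/EBPβ were listed in GRdim more often in either comparison.

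The other ChIP-exo libraries were read at the same 6pm regions. In the WT library of 6am, borders 29 to 31 bp apart were found at 8.08% of the peaks with both borders, 7.05% with C/EBPβ and 14.3% without (-7.23 points, -9.66 to -5.05). In the WT library after prednisolone they were found at 9.43%, 7.54% with and 20.7% without (-13.1 points, -16.5 to -10.1). All 3 WT libraries, each a separate pool, thus had the spacing more often where C/EBPβ was not listed. In the GRdim library of 6pm, of 43.8 M tags, the spacing was found at 2.36%, 2.31% with and 3.08% without, and the interval of the difference spanned 0 (-0.774 points, -3.48 to 0.770).

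The spacing recurred at the same regions in WT. Of the GR peaks without C/EBPβ that had borders 29 to 31 bp apart at 6pm and both borders at 6am, 41 of 83 (49.4%, 38.9 to 59.9) had this spacing again at 6am, against 14.3% of the 491 others. With C/EBPβ it recurred at 111 of 263 (42.2%, 36.4 to 48.2), against 6.11% of the others. In GRdim at 6pm the spacing was seen at 1 of 14 such peaks without C/EBPβ and 3 of 151 with it. Where the WT peak had the spacing, recurrence in WT thus did not differ between peaks with and without C/EBPβ beyond their intervals.

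With each condition's own lists, the pairing of GR and C/EBPβ was tightest at 6pm. The median centre distance was 24 bp at 6pm, 30 bp at 6am and 28 bp after prednisolone. The Spearman coefficient was 0.37 at 6pm, 0.13 at 6am and 0.08 after prednisolone, but the 6pm GR list was the longest and reached further down in rank. With every GR list cut to 4304 peaks and every C/EBPβ list to 21644, the Spearman coefficient was 0.19 at 6pm, 0.11 at 6am and 0.08 after prednisolone. The share of GR peaks with C/EBPβ was then 90.3%, 82.0% and 75.3%, and the median distances 24, 31 and 27 bp. In the uncut lists the shares were closer, at 83.2%, 79.7% and 75.7%. The cut kept the whole GR list after prednisolone but only the higher-scoring part of the 6pm list. The lowest GR score kept was 4.46 at 6pm, 2.36 at 6am and 2.03 after prednisolone. Since the share at 6pm rose with the GR score, the cut raised it there. Between the lowest and highest GR class of the cut lists the share went from 85.6% to 94.1% at 6pm, from 76.8% to 84.4% at 6am and from 74.2% to 75.9% after prednisolone. Each condition is 1 pool, so differences between conditions cannot be set against a spread between replicates.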

How the data were processed

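GR and C/EBPβ ChIP-seq and GR ChIP-exo of mouse liver were used, each list being a pool of 2 replicates per the labels. Bowtie, HOMER and mm9 are named per the submitters' processing notes, while roles, versions and peak thresholds were not given in the sources used here. The ChIP-seq lists hold peaks of 200 bp with a deposited score of unstated unit, used only to rank, describe or divide peaks within a list. The ChIP-exo lists hold the deposited tag count of each border, and, per the file headers, an RPM value of the authors. The tag count divided by the RPM gave the library size. A deposited height signal was not used. The RNA polymerase II and input samples were not analysed here.

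Peaks were shared at an overlap of at least 1 bp, in which case their centres lay at most 199 bp apart. Each list was divided by score into 5 classes of equal size. The strongest border of each strand within 100 bp of a peak's centre was taken, and a distance is the minus-strand less the plus-strand position between centres of 10 bp features. Shares carry Wilson and differences Newcombe intervals. A mean over classes weights the classes equally, with a normal interval. There was no replicated comparison, so no test was made. Alternatives were stricter centre distances, shorter lists, other border limits and the mean over classes.

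Members, classes and named regions were chosen with earlier results of these data known. The named regions are the 3 highest-scoring GR peaks with and without C/EBPβ, the 3 highest-scoring C/EBPβ peaks without GR, the 3 pairs with the best summed rank, the 3 with the widest rank gap in each direction, and for each border spacing the 3 with the most tags on the strongest borders, with and without C/EBPβ. Some of these are given. The code was tested on simulated data. Shares of sequence motifs were planned, but the mm9 sequence was not used here. Calculations used scipy 1.17.1, numpy 2.4.6 and pandas 2.3.3 under Python 3.11.15, and plots matplotlib 3.10.9.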

Additional observations from a re-analysis of the deposited data

Results flagged for a closer look

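GR peaks of WT at 6pm with and without C/EBPβ differed in opposite directions in the WT and the GRdim libraries once the GR score was held by averaging over its 5 classes. The difference between the genotypes was not tested, and each library is 1 pool. Borders of any strand were less frequent with C/EBPβ in every WT library, by -5.07 points (6am), -4.08 (6pm) and -1.31 (prednisolone, with an interval of -3.34 to 0.729). These borders were more frequent with C/EBPβ in every GRdim library, by 11.1 (6am), 14.8 (6pm) and 19.4 points (prednisolone). In the highest score class nearly all peaks held a border in WT, with and without C/EBPβ: 99.0% and 98.2% at 6am and 99.8% and 100% at 6pm. Little room for a difference was left there. After prednisolone the WT shares of that class were 94.4% and 91.5%.

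For borders of both strands, the difference with C/EBPβ was -9.31, -5.70 and -8.22 points in the WT libraries of 6am, 6pm and after prednisolone, and 5.32, 12.4 and 12.8 points in the GRdim libraries. The GRdim means rested on the higher score classes: in the lowest class the difference was -1.01 points (-2.24 to -0.0875) at 6am and -1.11 (-2.99 to 0.507) at 6pm, and in the highest 23.3 and 34.4.

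Listing of the same regions in the other GR ChIP-seq lists also split by genotype. Peaks with C/EBPβ were listed less often in WT at 6am (-4.66 points) and in WT after prednisolone (-5.20 points), and more often in the GRdim lists of 6am (9.89 points), 6pm (20.9 points) and prednisolone (11.1 points). In the lowest class the GRdim list of 6am went the other way, at -1.99 points (-3.46 to -0.848). The highest class went the other way in WT, with 95.5% of peaks with and 90.9% of peaks without C/EBPβ listed at 6am. Pooled over classes, the difference was positive in the WT lists as well, at 14.4 points for 6am and 7.80 after prednisolone.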

How the results depend on the processing

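Of 61 values under alternative settings for 11 results, 25 stayed within the interval of the value as reported, 35 moved outside it and 1 reversed, the ChIP-exo support with C/EBPβ less without (7.40 points), which was -4.08 as the mean over the score classes. The share of GR peaks with C/EBPβ was 79.6% and 66.4% with centres within 100 and 50 bp, 71.7% in the higher-scoring 50% of both lists and 60.4% with the C/EBPβ list cut to the GR list's length. The reverse share was 43.3%, 36.1%, 39.0% and 60.4%. The rise with the GR score was 20.8 and 15.1 points within 100 and 50 bp and 44.6 with the cut list. The Spearman coefficient was 0.34 within 50 bp, 0.21 in the higher-scoring 50%, 0.28 with the cut list and 0.22 for GR scores of at least 4, and the median distance 25 bp in the higher-scoring 50%. ChIP-exo support differed by 5.08 and 3.06 points within 100 and 50 bp, 1.42 in the higher-scoring 50%, 11.5 with the cut list and 10.5 with at least 20 tags. The 29 to 31 bp difference was -3.25 points within 50 bp, -3.03 in the higher-scoring 50%, -2.30 with the cut list, -10.8 with at least 20 tags, -1.79 with the closest opposite borders, and, in alternatives added after the data were seen, -3.58 with 1 border per strand and -10.2 for 28 to 34 bp. The closest opposite borders gave -3.58 points for 10 to 12 bp and -1.97 for 24 to 26 bp. C/EBPβ peaks without GR held a GR border in 8.42% within 60 bp and 0.676% with at least 20 tags. The GRdim listing difference, also added afterwards, was 20.9 points over the classes, 25.6 within 100 bp and 27.4 in the higher-scoring 50%. A stricter distance or a shorter C/EBPβ list counts near or weak C/EBPβ peaks as absent; beyond that the cause was not tested. No paired analysis was possible because each list is 1 pool of replicates. Replicates could not be left out for the same reason. ChIP-seq depth is unknown, and a peak missing from a list can be a weak one.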

Other observations

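The share of GR peaks with C/EBPβ was similar along the genome. It was between 80.1% (chromosome 11) and 86.7% (chromosome 13) on the autosomes, and 74.8% (66.0 to 81.9) of the 111 GR peaks on the X chromosome.

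GR peaks without C/EBPβ had another GR peak within 1000 bp slightly more often, in 17.5% of cases against 14.8% with C/EBPβ (-2.66 points, -4.35 to -1.05). Within 5000 bp the shares were 49.3% for both groups.

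At 6am and after prednisolone, borders 10 to 12 bp apart at the 6pm regions were also more frequent without C/EBPβ, at 12.5% against 8.29% and at 18.2% against 9.21%. The differences were -4.22 points (-6.56 to -2.15) and -8.99 points (-12.3 to -6.04). At 6pm the difference was -1.30 points, with an interval that spanned 0. Borders 24 to 26 bp apart were more frequent with C/EBPβ in the same 2 libraries, by 1.39 points (0.0741 to 2.39) and 1.70 points (0.111 to 2.83).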
